A study of Mus musculus with 8 samples.

Results

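Bone marrow-derived macrophages from ELF-1 knockout mice were compared with those from wild-type mice, both after 6 hours with lipopolysaccharide (LPS). These cells are grown from marrow progenitors in culture and are widely used to study how macrophages respond to microbial products. The comparison takes 4 of the 8 bulk RNA-seq libraries of the study: 2 labelled ELF1 KO with the treatment label M1 and 2 labelled WT with the label M1. M1 was read as the LPS arm because LPS is the sole stimulus the study names. The other 4 libraries, 2 labelled KO and 2 labelled WT, carry the label con and were read as the cells kept without LPS. They enter for one shared estimate of the spread and for a side-by-side genotype comparison. The sources used here give no LPS dose, strain, age, sex or knockout allele, and they do not say whether the 2 libraries of a group come from separate mice, so the p-values reflect library-to-library spread alone, and that may be technical.

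The deposited table gives gene expression as FPKM, a level scaled for gene length and library depth. Genes at 1 FPKM or more in at least 2 of the 8 libraries were kept, which left 11887 genes. Differences were tested on log2(FPKM + 1) with limma, and a gene was called changed at a Benjamini-Hochberg adjusted p under 0.05. Log2 changes are KO minus WT on that scale, which understates the change of low genes, and errors are standard errors of the fit.

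As background, ELF1 belongs to the ETS family of transcription factors, which bind DNA around a GGAA core and include the macrophage regulator PU.1. LPS is sensed by TLR4, which drives inflammatory genes through NF-kB and, through the adaptor TRIF and IRF3, a burst of interferon beta. Interferon beta then acts back on the same cells through its receptor and a complex that includes STAT2 and IRF9, which binds the interferon-stimulated response element of antiviral genes.

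Elf1 RNA was present in every library. With LPS it stood at 16.5 and 17.9 FPKM in KO and at 21.9 and 22.4 FPKM in WT. Without LPS it stood at 16.9 and 16.1 FPKM in KO and at 12.4 and 14.1 FPKM in WT, a difference that did not pass (adjusted p = 0.0699). The KO libraries were thus all below the WT libraries with LPS and all above them without it. The change with LPS minus that without it, the genotype by LPS interaction, passed at -0.64 (limma adjusted p = 0.00891). The change with LPS was -0.35 ± 0.07 (limma adjusted p = 0.0133), and that call was lost under 3 other scalings and without KO replicate 1, WT replicate 1 or WT replicate 2, with adjusted p between 0.0507 and 0.205. Elf1 lies at chr14:79481194-79582494 on the plus strand (mm10, as the table gives it). A total per gene cannot show whether a part of the transcript is missing, so this level does not check the genotype, and the groups are called KO and WT after their labels.

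The LPS-treated libraries held between 15753259 and 17133646 reads assigned to genes, rebuilt from the FPKM values, and within a group the median absolute log2 difference between replicates was 0.0972 in KO and 0.0871 in WT. All 12 macrophage markers were above 1 FPKM with LPS, and their summed level was 10538 and 9731 FPKM in KO against 9106 and 9266 FPKM in WT. Lyz2 made that difference: the other 11 summed to 5045 and 4895 FPKM in KO against 5082 and 5322 FPKM in WT, and 2 of the 12 markers were called higher and 4 lower. Markers of other cell types were low: 8 neutrophil, T-cell, natural killer cell, mast cell and erythroid markers were at 0 in all 4 libraries, among them Cd3d, Cd3g, Retnlg and Klrb1c. The summed dendritic cell markers were 8.63 and 7.66 FPKM in KO and 4.63 and 4.46 FPKM in WT, mostly Ccr7, and the summed progenitor markers were 35.2 and 25.9 FPKM in KO and 43.8 and 52.2 FPKM in WT, mostly Ly6a. The 6 fibroblast markers summed to 0.701 and 1.17 FPKM in KO and to 2.38 and 9.08 FPKM in WT. Of 33 tested mitochondrially encoded genes 4 were higher in KO (against 10.8% of all tested genes) and none was lower (18.1%), median 0.00. The part of these differences in the results was not tested. In bulk RNA, fewer cells of a type and less RNA per cell cannot be told apart.

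With LPS, 2152 genes were lower in KO (18.1% of those tested) and 1286 were higher (10.8%). Most changes were small, with a median size of 0.436 among called genes. A call with a change of at least 1 was reached by 207 lower genes (1.74%) and by 56 higher genes (0.471%), so the largest changes were mostly losses. The median over all tested genes was -0.02.

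The balance of small changes depended on the scaling. Higher genes made up 37.4% of the calls in the deposited scaling, against 73.2% after rescaling to TPM (values with the same sum in every library), 75.1% after scaling by total reads and 53.6% after quantile normalization. The minimum of 1 then admitted 15752 genes under TPM and 12137 under total reads. With the same 11887 genes tested, an alternative added after seeing the data, the share was 73.7% under TPM and 75.0% under total reads, and the median over these genes was 0.16 and 0.14. The larger losses were less affected: of the 207 genes lower by at least 1, 185 were still called lower under TPM, 194 under total reads and 202 under quantile normalization. Of the 56 genes higher by at least 1, 52, 51 and 54 were still called. Counts also rested on single libraries, falling to 721 higher and 1363 lower without WT replicate 2, and to 809 and 816 higher without KO replicate 1 or 2.

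**Figure D1:**
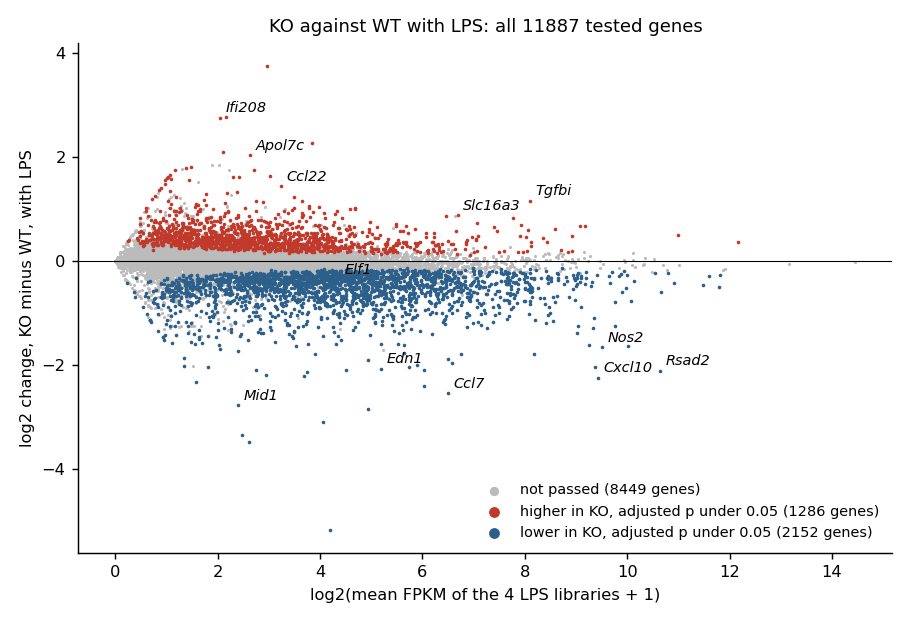
Change of each of the 11887 tested genes, KO minus WT with LPS (vertical axis, log2), against its mean level over the 4 LPS libraries (horizontal axis, log2(FPKM + 1)). Red points are the 1286 genes called higher in KO, blue points the 2152 called lower and grey points the 8449 that did not pass; the named losses Cxcl10, Rsad2 and Nos2 lie at high expression, and the points beyond Mid1 and Ifi208 are predicted or mitochondrially encoded genes that the naming rule leaves out.

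The 20 largest falls in KO that the naming rule admits held interferon-stimulated genes and chemokines that attract monocytes and T cells, beside others such as Mid1, Pls3, Aldh1b1 and Edn1. Cxcl10, a chemokine for T cells that interferon induces, stood at 235 and 242 FPKM in KO and at 1062 and 1204 FPKM in WT. Its KO mean was 0.211 times the WT mean, a change of -2.24 ± 0.09 (adjusted p = 6.1e-05). Its neighbour Cxcl11, a ligand of the same receptor that the annotation lists as a polymorphic pseudogene, stood at 3.76 and 4.30 FPKM in KO and at 19.8 and 21.9 FPKM in WT (-2.12 ± 0.09). Neither chemokine exceeded 1 FPKM without LPS in either genotype, and for both the KO and WT libraries with LPS were far apart.

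Rsad2, which encodes the antiviral enzyme viperin, stood at 554 and 651 FPKM in KO and at 2441 and 2733 FPKM in WT (-2.10 ± 0.09, adjusted p = 6.73e-05). Cmpk2, a mitochondrial nucleotide kinase encoded next to Rsad2, stood at 242 and 276 FPKM in KO and at 1010.5 and 1101 FPKM in WT (-2.02 ± 0.08). The KO means of this pair were 0.233 and 0.245 times the WT means. The Ifit genes encode proteins that bind viral RNA. Ifit2 stood at 477 and 528 FPKM in KO and at 1509 and 1609 FPKM in WT (-1.63 ± 0.09), and Ifit3, named here after its values were seen, at 295 and 308 FPKM in KO and at 866 and 973 FPKM in WT (-1.60 ± 0.06). Ifit1bl1 fell by 2.40 and Ifit3b fell by 2.02 on the log2 scale; Ifit3 and Ifit3b are near-identical copies, so how reads were divided between them is uncertain.

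The promoters of 3 of these genes are shown because each holds the core of the interferon-stimulated response element, searched as GAAANNGAA on both strands; matches are in capitals and appear as the reverse complement where they lie on the other strand. Each is the RefSeq window of GRCm38.p6 from 250 bases before to 50 bases after the annotated start, written 5′ to 3′ on the gene's strand. Cxcl10 is at chr5:92348840-92349139 (minus strand) with a match beginning at position -213 from the start, Rsad2 at chr12:26456403-26456702 (minus strand) with a match at -119, and Ifit3 at chr19:34583279-34583578 (plus strand) with matches at -155, -121 and -102.
Cxcl10: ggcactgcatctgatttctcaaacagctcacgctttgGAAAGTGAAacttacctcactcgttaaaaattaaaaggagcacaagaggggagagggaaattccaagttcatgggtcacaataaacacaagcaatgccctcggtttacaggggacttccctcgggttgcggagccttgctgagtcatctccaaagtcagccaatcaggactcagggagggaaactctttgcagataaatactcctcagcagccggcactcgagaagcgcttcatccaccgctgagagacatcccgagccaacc
Rsad2: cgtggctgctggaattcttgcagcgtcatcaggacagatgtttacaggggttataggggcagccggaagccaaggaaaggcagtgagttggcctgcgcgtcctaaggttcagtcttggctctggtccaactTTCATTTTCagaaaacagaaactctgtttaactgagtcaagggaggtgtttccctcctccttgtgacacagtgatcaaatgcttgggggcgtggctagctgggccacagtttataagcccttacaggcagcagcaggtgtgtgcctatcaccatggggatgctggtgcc
Ifit3: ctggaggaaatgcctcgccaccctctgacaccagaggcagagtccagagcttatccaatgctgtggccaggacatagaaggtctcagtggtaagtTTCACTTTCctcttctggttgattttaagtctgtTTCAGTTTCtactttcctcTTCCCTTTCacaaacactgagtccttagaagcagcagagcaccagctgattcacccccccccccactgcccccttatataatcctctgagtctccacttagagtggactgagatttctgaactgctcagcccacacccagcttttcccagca
The same core was present in 8.56% of all 32851 RefSeq windows of this length and in 7.52% of those matched to tested genes. The ETS site searched, CCGGAAGT, was in none of these 3 windows and in 3.89% of all windows and 8.79% of those matched to tested genes, which says only that these letters are not in this stretch. A match is a description of the sequence and not evidence of binding.

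Antiviral interferon-stimulated genes fell almost as a block. Of 66 listed genes 64 were tested; 60 were lower, none was higher and 4 did not pass, with a median change of -0.72 against -0.02 over all tested genes. A fall of at least 1 was reached by 15 of them. Under the other scalings 50 to 54 were called lower and 1 was called higher, and with any library left out the number lower was 57 to 60. Without LPS the same list had 16 lower, against 466 lower over all genes (3.92%), and 1 higher, against 205 over all genes (1.72%).

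Guanylate-binding proteins and immunity-related GTPases, which attack the vacuoles of intracellular microbes, showed the same direction without exception. All 16 tested members of the 18 listed were lower in KO, by a median of -1.11, and all 16 were lower under each of the 3 other scalings. Gbp4 stood at 3.68 and 3.46 FPKM in KO and at 18.5 and 21.6 FPKM in WT (-2.20 ± 0.09). Iigp1 stood at 21.0 and 25.0 FPKM in KO and at 87.8 and 100.4 FPKM in WT (-1.99 ± 0.10). Both were under 0.2 FPKM without LPS, where 1 member of the list was lower and none was higher. Gbp4 and Gbp9 overlap on the same strand, and Tgtp1 and Tgtp2 are close copies, so the division of reads within each pair is uncertain; Gbp9 changed by -1.40 ± 0.08 and Tgtp2 by -1.30 ± 0.07.

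**Figure D2:**
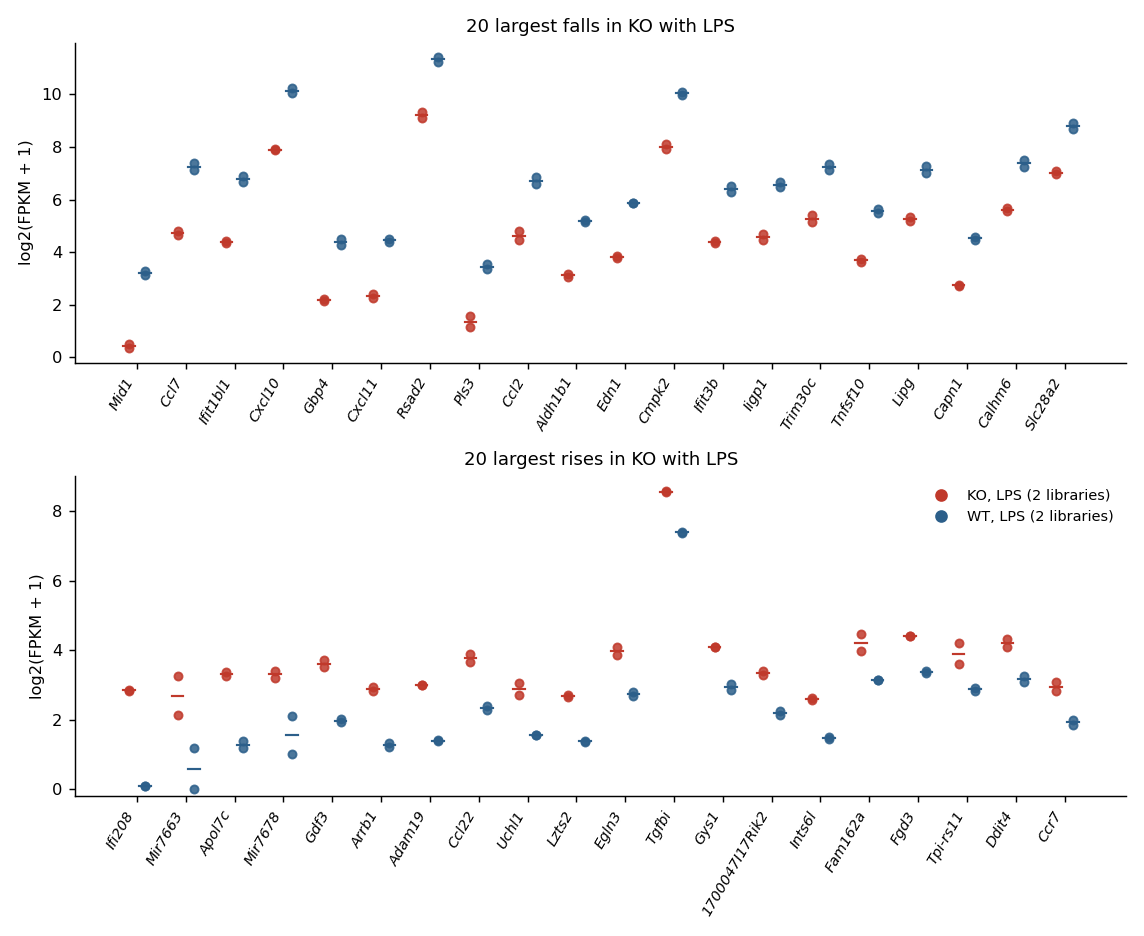
Level of the 20 largest falls (upper panel) and 20 largest rises (lower panel) in KO with LPS, as log2(FPKM + 1), 1 point per library, with a bar at the mean of each pair (red KO, blue WT). The KO and WT points of each gene do not overlap, as the naming rule required, and the replicates of a pair lie within 1 log2 unit of each other except for Mir7663 and Mir7678.

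The upstream steps of the interferon loop could be measured in part. Interferon beta itself (Ifnb1) was below the minimum and was not tested: 3 and 0 reads were assigned to it in KO and 3 and 3 in WT with LPS, and 0 reads still allow up to 3. Ifnar1, a chain of the interferon receptor, stood at 81.4 and 80.8 FPKM in KO and at 75.7 and 75.1 FPKM in WT, a change of 0.10 ± 0.04 that did not pass (adjusted p = 0.0918) but was called higher under all 3 other scalings. Ifnar2, the other chain, stood at 105 and 100.03 FPKM in KO and at 113 and 115 FPKM in WT (-0.15 ± 0.05, adjusted p = 0.0582), and it was called lower under 5 alternatives, with adjusted p between 0.0327 and 0.0489. These receptor chains thus differed little between the genotypes. Ifnb1, Ifnar1, Ifnar2, Irf3 and Tlr4 were named after their values were seen. Of the 5 tested ligands and receptors of this group, Ifngr1, the interferon gamma receptor chain, was higher in KO (0.32 ± 0.05), Il10rb, a chain shared by the interleukin 10 and lambda interferon receptors, was lower (-0.40 ± 0.04, lost under quantile normalization with adjusted p = 0.0508), and 3 did not pass.

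Among 16 tested genes of JAK-STAT signalling, 12 were lower, 1 was higher and 3 did not pass (median -0.36). Under the other scalings 6 or 7 were lower, and without KO replicate 1 none was higher. Stat2, a part of the interferon-activated complex, stood at 97.0 and 105 FPKM in KO and at 175 and 185 FPKM in WT (-0.83 ± 0.05, adjusted p = 0.000159). Usp18, which restrains interferon receptor signalling and is itself interferon-induced, changed by -1.16 ± 0.13, and the kinase gene Tyk2 by -0.71 ± 0.08. For Stat2 both KO libraries were below both WT libraries with LPS, and no difference was called without LPS.

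Of 7 tested interferon regulatory factors, 6 were lower and 1 did not pass (median -0.51), with 4 lower under each other scaling. Irf7, which amplifies interferon production, stood at 243 and 239.9 FPKM in KO and at 414 and 437 FPKM in WT with LPS (-0.81 ± 0.05). Without LPS it was further apart in ratio, at 3.80 and 3.59 FPKM in KO and at 12.5 and 12.1 FPKM in WT (-1.50, adjusted p = 5.05e-05), and the interaction was 0.69 (adjusted p = 0.00175). Irf7 was therefore lower in KO in both conditions and less so with LPS. Irf1, itself induced by interferon, changed by -0.51 ± 0.07 and Irf2 by -0.62 ± 0.05. Irf3, the factor that TLR4 activates, did not pass: it stood at 8.25 and 8.27 FPKM in KO and at 8.19 and 9.32 FPKM in WT.

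Sensors of nucleic acid fell with the antiviral genes, 9 of 11 tested members lower, 2 not passing and none higher (median -0.61). Ifih1, which encodes the double-stranded RNA sensor MDA5, stood at 74.7 and 82.0 FPKM in KO and at 157 and 163 FPKM in WT (-1.02 ± 0.08). Aim2, a sensor of cytosolic DNA that starts an inflammasome, stood at 17.2 and 19.5 FPKM in KO and at 36.8 and 35.3 FPKM in WT (-0.94 ± 0.09). Ddx58, which encodes the RNA sensor RIG-I, changed by -0.76 ± 0.06. Under the other scalings 7 or 8 members were lower and up to 2 were higher.

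The receptors of the toll-like family did not move as one. Tlr3, the endosomal sensor of double-stranded RNA, stood at 16.0 and 18.5 FPKM in KO and at 52.0 and 56.3 FPKM in WT (-1.60 ± 0.08, adjusted p = 9.08e-05). The other endosomal receptors Tlr7, Tlr8 and Tlr9 changed by -0.80, -0.68 and -0.95. Tlr4, the receptor of LPS, was higher in KO, at 12.2 and 12.4 FPKM against 9.06 and 9.01 FPKM in WT (0.41 ± 0.06, adjusted p = 0.00252). Tlr7 had gone the other way without LPS, with 47.5 and 46.9 FPKM in KO and 32.1 and 36.0 FPKM in WT (0.46), and its interaction was -1.26 (adjusted p = 0.000779). Over the whole list of receptors and TLR4 signalling genes, 11 of 29 tested were lower and 5 higher; without KO replicate 1 these counts were 7 and 1, and under TPM 5 and 6.

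Of 24 tested NF-kB subunits and feedback inhibitors, 16 were lower, 8 did not pass and none was higher, with a median of -0.28. Most of these were small changes: under the other scalings 5 or 6 were lower and 1 to 3 higher. Tnfaip3, which encodes the NF-kB brake A20, stood at 223 and 218 FPKM in KO and at 315 and 326 FPKM in WT (-0.54 ± 0.04, adjusted p = 0.000269). Tnip3, an A20-binding protein, stood at 25.9 and 25.9 FPKM in KO and at 40.7 and 42.8 FPKM in WT (-0.67 ± 0.06).

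Cytokine transcripts were lower in KO in 15 of 23 tested cases, with 1 higher, 7 not passing and a median of -0.75; 12 or 13 were lower under the other scalings. Il15, which sustains natural killer and memory T cells, stood at 21.5 and 22.3 FPKM in KO and at 67.9 and 68.1 FPKM in WT (-1.59 ± 0.07, adjusted p = 6.1e-05). Tnfsf10, which encodes the death ligand TRAIL, stood at 11.4 and 12.4 FPKM in KO and at 44.4 and 49.5 FPKM in WT (-1.89 ± 0.08). Their KO means were 0.322 and 0.253 times the WT means. Il27 changed by -1.11 ± 0.15, a call lost under TPM (adjusted p = 0.0508), and Tnfsf15 by -1.27 ± 0.07.

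Classical LPS cytokines, named after their values were seen, split. Tnf stood at 304 and 306 FPKM in KO and at 496 and 474 FPKM in WT (-0.67 ± 0.06), although without LPS it was higher in KO, at 5.40 and 6.05 FPKM against 3.95 and 3.93 FPKM in WT (0.44, adjusted p = 0.0078). Il6 stood at 19.1 and 21.6 FPKM in KO and at 35.9 and 38.3 FPKM in WT (-0.84 ± 0.08), and the anti-inflammatory Il10 at 35.8 and 36.7 FPKM in KO and at 70.4 and 70.6 FPKM in WT (-0.94 ± 0.07). Il1b, one of the most abundant cytokine transcripts here, stood at 1422 and 1258 FPKM in KO and at 1269 and 1276 FPKM in WT, which overlap; it did not pass (adjusted p = 0.422) and was called higher in KO under the other scalings.

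Chemokines held large changes in both directions. Of 20 tested, 11 were lower, 2 were higher and 7 did not pass, and 8 fell and 2 rose by at least 1. The monocyte attractants Ccl2, Ccl7 and Ccl12 act through the receptor CCR2 and lie together on chromosome 11. Ccl7 stood at 24.3 and 26.6 FPKM in KO and at 139 and 166 FPKM in WT (-2.53 ± 0.22, adjusted p = 0.000397). Ccl2 stood at 21.2 and 26.6 FPKM in KO and at 94.8 and 114 FPKM in WT (-2.08 ± 0.13, adjusted p = 0.000139). Ccl12 stood at 6.39 and 3.27 FPKM in KO and at 15.1 and 17.6 FPKM in WT (-1.63 ± 0.23).

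The rises were in Ccl22 and Cxcl3. Ccl22, which attracts regulatory T cells through CCR4, stood at 13.9 and 11.5 FPKM in KO and at 3.84 and 4.23 FPKM in WT (1.44 ± 0.12, adjusted p = 0.0003). Cxcl3, a neutrophil attractant named after its values were seen, stood at 32.6 and 33.8 FPKM in KO and at 17.7 and 14.5 FPKM in WT (1.01 ± 0.09). Their KO libraries were above the WT libraries while those of Ccl2, Ccl7, Cxcl10 and Cxcl11 were below, and these directions were kept under each other scaling. Among the 16 tested chemotactic receptors 5 were higher and 6 lower; Ccr7, the lymph-node homing receptor, stood at 7.46 and 6.05 FPKM in KO and at 2.96 and 2.62 FPKM in WT (1.03 ± 0.14), C5ar1 changed by 0.83 ± 0.05 and Ccrl2 by -1.03 ± 0.07.

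**Figure D3:**
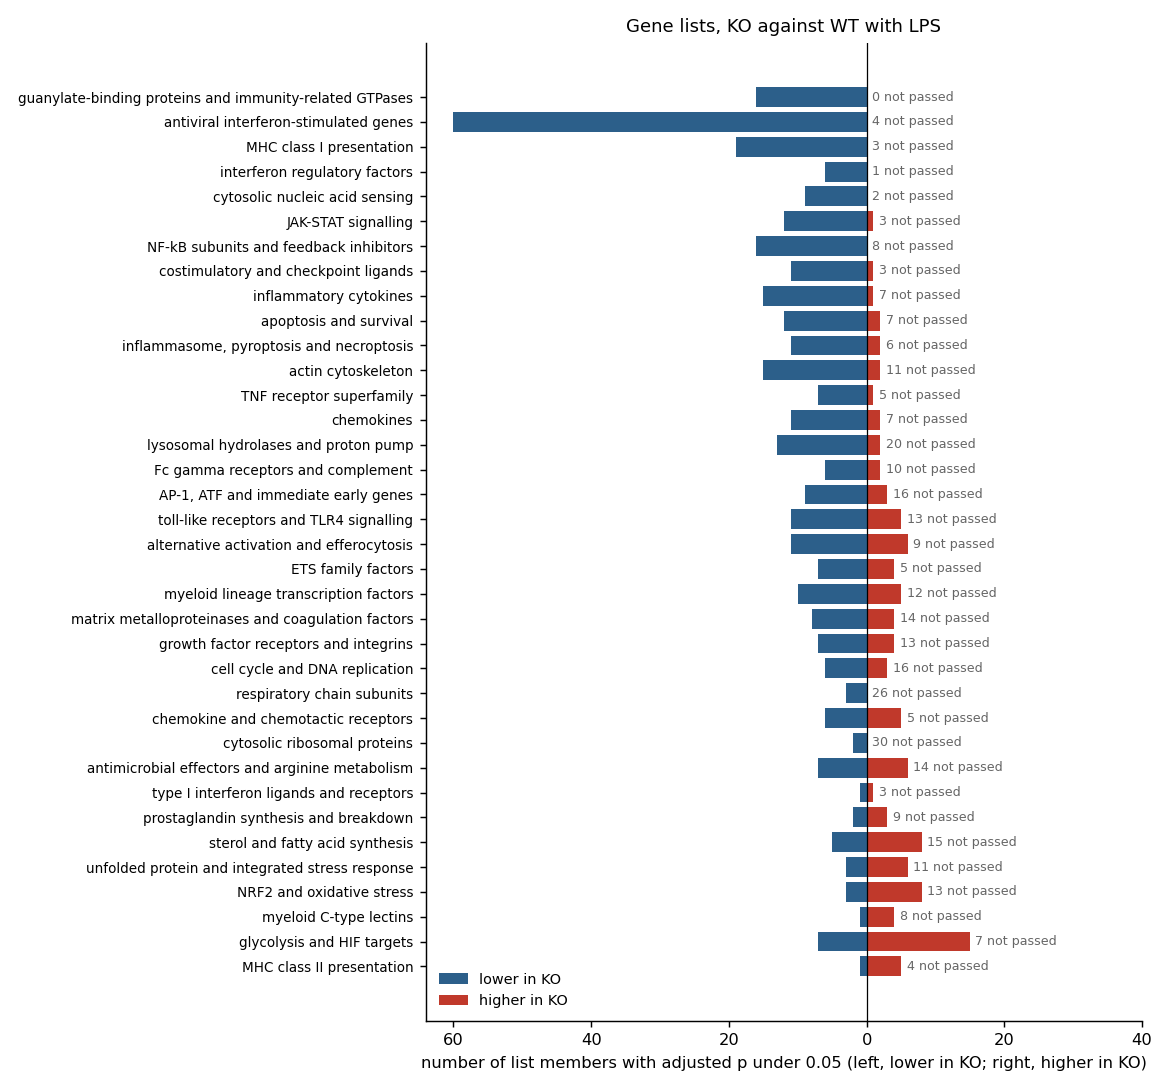
Number of tested members of each of 36 gene lists called lower in KO with LPS (blue bars, to the left) and higher (red bars, to the right), with the number that did not pass beside each bar. The interferon lists at the top hold almost exclusively losses, such as 60 of 64 antiviral genes, and glycolysis and MHC class II lie at the bottom with more rises than falls.

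Nos2, which encodes the inducible nitric oxide synthase used as a mark of classical activation, stood at 332 and 370.3 FPKM in KO and at 1064 and 1141 FPKM in WT (-1.65 ± 0.07, adjusted p = 6.1e-05). Arg1, whose enzyme competes for the same substrate arginine, stood at 3.85 and 3.33 FPKM in KO and at 1.91 and 1.53 FPKM in WT (0.76 ± 0.11, adjusted p = 0.00327). Slpi, a secreted protease inhibitor, stood at 19.0 and 17.3 FPKM in KO and at 8.75 and 9.13 FPKM in WT (0.94 ± 0.11). It was also called higher in KO without LPS (0.64), and its interaction did not pass. The 27 tested antimicrobial and arginine genes as a whole gave 7 lower and 6 higher, or 3 and 3 without WT replicate 2, so only the named genes are described.

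Genes of class I antigen presentation were mostly lower in KO and those of class II more often higher than lower. Of 22 tested MHC class I presentation genes, 19 were lower, 3 did not pass and none was higher (median -0.54), with 12 to 16 lower and 2 higher under the other scalings. Without LPS 9 of the 22 were lower, against 3.92% of all tested genes, and 1 was higher. Nlrc5, the class I transactivator, stood at 52.4 and 57.1 FPKM in KO and at 93.6 and 99.8 FPKM in WT (-0.81 ± 0.08). Tap1, a subunit of the peptide transporter, stood at 143 and 156 FPKM in KO and at 243 and 257 FPKM in WT (-0.74 ± 0.06). H2-T22 changed by -0.74 ± 0.05, and H2-Q7, a near copy of H2-Q6, by -0.73 ± 0.06.

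Of 10 tested MHC class II genes, 5 were higher, 1 was lower and 4 did not pass (median 0.35), with 6 or 7 higher and none lower under the other scalings. H2-Aa, a class II alpha chain, stood at 312 and 287 FPKM in KO and at 178 and 188 FPKM in WT (0.71 ± 0.06, adjusted p = 0.000322). Cd74, the invariant chain that accompanies class II molecules, stood at 2454 and 2338 FPKM in KO and at 1626 and 1768 FPKM in WT (0.50 ± 0.06). H2-Ab1, H2-Eb1 and H2-DMa changed by 0.63, 0.60 and 0.40. All 5 were also higher in KO without LPS, where H2-Aa stood at 197 and 209.6 FPKM in KO and at 146 and 151 FPKM in WT (0.45, adjusted p = 0.00932), and none of their interactions passed. Summed dendritic cell and B-cell markers, which also mark class II-rich cells, were higher in KO, but Ccr7 and Ighm made these differences. B-cell markers summed to 2.55 and 2.89 FPKM in KO and to 1.42 and 2.08 FPKM in WT. Without Ighm they summed to 0.0804 and 0.162 FPKM in KO and to 0.0985 and 0.396 FPKM in WT. Without Ccr7 the dendritic cell markers summed to 1.17 and 1.61 FPKM in KO and to 1.67 and 1.83 FPKM in WT. The part of such cells in the class II result was not tested.

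Ligands that tune T-cell responses were mostly lower, 11 of 15 tested, with 1 higher (none without WT replicate 1) and 3 not passing. The median was -0.69, and 9 or 10 were lower under the other scalings. Cd86, a costimulatory ligand of CD28, stood at 31.7 and 29.3 FPKM in KO and at 63.7 and 76.4 FPKM in WT (-1.17 ± 0.09, adjusted p = 0.000219). Cd274, which encodes the checkpoint ligand PD-L1, stood at 370.1 and 402 FPKM in KO and at 699 and 712 FPKM in WT (-0.87 ± 0.05). The stimulating ligand was thus at 0.436 times and the inhibiting ligand at 0.547 times the WT mean.

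Cell death genes were lower in 11 of 19 tested inflammasome, pyroptosis and necroptosis members, with 2 higher, and in 12 of 21 tested apoptosis and survival members, with 2 higher. Under the other scalings these counts of lower genes were 5 to 9 and 6 or 7, and 1 apoptosis gene was higher without KO replicate 1. Casp8, an initiator caspase, stood at 32.8 and 32.6 FPKM in KO and at 59.5 and 63.9 FPKM in WT (-0.89 ± 0.05). Bcl2l11, which encodes the pro-apoptotic protein BIM, was higher, at 18.3 and 18.6 FPKM in KO and at 11.9 and 11.5 FPKM in WT (0.61 ± 0.04), although it had been lower in KO without LPS (-0.25, adjusted p = 0.0238).

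Glycolytic genes and targets of hypoxia-inducible factor (HIF) rose more often than they fell. Of 29 tested, 15 were higher, 7 were lower and 7 did not pass, with a median of 0.32. The count of higher genes was 16 or 17 under the other scalings and 14 or 15 with any library left out. Slc16a3, the lactate exporter MCT4, stood at 132 and 133 FPKM in KO and at 71.5 and 72.0 FPKM in WT (0.88 ± 0.05, adjusted p = 9.13e-05). Egln3, a prolyl hydroxylase that marks HIF for destruction and is itself a HIF target, stood at 13.5 and 16.0 FPKM in KO and at 5.92 and 5.47 FPKM in WT (1.23 ± 0.11). Gpi1, a glycolytic enzyme, changed by 0.72 ± 0.05. No difference in Slc16a3 was called without LPS, where it stood at 17.7 and 18.3 FPKM in KO and at 19.9 and 18.6 FPKM in WT (-0.09).

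Ldha, Pdk1, Vegfa and Hif1a were named after their values were seen. Ldha, lactate dehydrogenase, stood at 324 and 298 FPKM in KO and at 236 and 244 FPKM in WT with LPS (0.37 ± 0.05) but was lower in KO without LPS (-0.36, adjusted p = 0.0164). Pdk1 changed by 0.70 ± 0.09 and Vegfa by 0.55 ± 0.06 with LPS. Hif1a itself overlapped, at 115 and 131 FPKM in KO and at 113 and 117 FPKM in WT (adjusted p = 0.467), and it was called higher under total-read scaling, and under TPM when the same 11887 genes were tested (adjusted p between 0.0368 and 0.0379). The 2 largest falls in the list were Hk3, a hexokinase of myeloid cells, at 198 and 207 FPKM in KO and 338 and 354 FPKM in WT (-0.77 ± 0.05), and Pfkfb3, which makes an activator of glycolysis, at 122 and 122 FPKM in KO and 198 and 208 FPKM in WT (-0.73 ± 0.04).

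Gys1, Fam162a and Ddit4 were among the 20 largest rises and outside this list. Gys1, the muscle-type glycogen synthase, stood at 16.2 and 16.2 FPKM in KO and at 7.19 and 6.26 FPKM in WT (1.16 ± 0.09, adjusted p = 0.0003). Fam162a, a mitochondrial protein induced by hypoxia in human cells, stood at 20.9 and 14.8 FPKM in KO and at 7.84 and 7.84 FPKM in WT (1.07 ± 0.17). Ddit4, an inhibitor of mTORC1, stood at 19.0 and 16.1 FPKM in KO and at 7.55 and 8.61 FPKM in WT (1.03 ± 0.26, limma adjusted p = 0.0273). That call was lost without any single one of the 4 LPS libraries, and with pseudocount 0.1, no FPKM minimum and TPM.

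The Slc16a3 promoter is shown for its paired hypoxia response elements, searched as ACGTGC on both strands and printed in capitals; the RefSeq window (GRCm38.p6) is chr11:120948817-120949116 on the plus strand, and the matches begin at -27 and -14.
Slc16a3: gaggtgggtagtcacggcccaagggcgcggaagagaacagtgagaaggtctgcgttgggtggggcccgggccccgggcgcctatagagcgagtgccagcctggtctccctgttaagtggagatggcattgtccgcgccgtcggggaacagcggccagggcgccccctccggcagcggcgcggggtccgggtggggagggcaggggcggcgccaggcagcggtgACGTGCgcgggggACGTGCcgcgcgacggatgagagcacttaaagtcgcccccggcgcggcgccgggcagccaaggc
This element was in 5.92% of all RefSeq windows and in 8.17% of the 10572 windows matched to tested genes. It was in 30.8% of the 39 windows matched to 28 of the 29 tested glycolysis and HIF genes. That list names HIF targets, so its share says nothing about the genotype. By call, the element was in 9.90% of windows of genes higher in KO, 7.35% of those lower and 8.10% of those not called.

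Genes controlled by NRF2, the factor that responds to oxidants, were higher in 8 of 24 tested cases and lower in 3. The median was 0.13, and 13 did not pass. Under the other scalings 15 or 16 were higher. Over all tested genes, 2795 of 15752 were then higher under TPM, 3255 of 12137 under total reads and 1581 of 11887 under quantile normalization. Without LPS 5 members of the list were lower in KO, against 3.92% of all tested genes, and none was higher. Gclm, the regulatory subunit of the enzyme that limits glutathione synthesis, stood at 24.2 and 25.2 FPKM in KO and at 13.3 and 11.9 FPKM in WT (0.92 ± 0.08, adjusted p = 0.000372). Hmox1, which encodes heme oxygenase 1, stood at 688 and 641 FPKM in KO and at 429 and 399.8 FPKM in WT (0.68 ± 0.05). Srxn1, which repairs oxidised peroxiredoxins, changed by 0.69 ± 0.06 with LPS and by -0.45 without it (adjusted p = 0.0132), so its direction differed between the conditions (interaction 1.13, adjusted p = 0.00119).

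The Gclm promoter is shown because it holds an antioxidant response element core, searched as TGACNNNGC on both strands; the match, in capitals, lies on the other strand and begins at -134. The RefSeq window (GRCm38.p6) is chr3:122245307-122245606 on the plus strand.
Gclm: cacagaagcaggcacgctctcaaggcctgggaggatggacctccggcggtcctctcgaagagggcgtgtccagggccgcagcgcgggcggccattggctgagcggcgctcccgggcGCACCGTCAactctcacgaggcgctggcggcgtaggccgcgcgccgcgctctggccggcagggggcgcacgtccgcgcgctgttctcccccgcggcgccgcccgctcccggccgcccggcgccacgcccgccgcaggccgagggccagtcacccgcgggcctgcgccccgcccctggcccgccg
This core was in 12.4% of all RefSeq windows and in 14.7% of those matched to tested genes. It was in 25.0% of the 28 windows matched to 20 of the 24 tested NRF2 genes. That list names NRF2 targets, so its share says nothing about the genotype. By call, the core was in 13.9% of windows of genes higher in KO, 15.7% of those lower and 14.5% of those not called. It also occurred once each in the Cxcl10 and Rsad2 windows, and the hypoxia element once in the Gclm window.

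The largest rise that the naming rule admits was Ifi208, a member of the PYHIN family, at 6.20 and 6.14 FPKM in KO and at 0.0557 and 0.0589 FPKM in WT (2.76 ± 0.10, adjusted p = 6.1e-05). It was below 0.05 FPKM in all 4 libraries without LPS. Its family holds close copies on chromosome 1, and a relative, Ifi204, went the other way (-0.87 ± 0.07), so the source of these reads is uncertain. Apol7c, of the apolipoprotein L family, stood at 9.36 and 8.61 FPKM in KO and at 1.60 and 1.28 FPKM in WT (2.04 ± 0.10). Tgfbi, a secreted matrix protein, was the most abundant of the 20, at 383 and 374 FPKM in KO and at 169.7 and 166 FPKM in WT (1.17 ± 0.05).

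Arrb1, which encodes beta-arrestin 1, stood at 6.69 and 6.15 FPKM in KO and at 1.51 and 1.32 FPKM in WT (1.62 ± 0.07). Without LPS it stood at 15.5 and 15.9 FPKM in KO and at 19.5 and 17.7 FPKM in WT, so it was lower with LPS than without in both genotypes and by more in WT. Fgd3, a guanine nucleotide exchange factor, changed by 1.04 ± 0.07, Uchl1, a ubiquitin hydrolase, by 1.33 ± 0.16, and Ints6l, a relative of an Integrator complex subunit, by 1.11 ± 0.06. Of the remaining rises, Mir7663, Mir7678 and Tpi-rs11 rest on short genes: Mir7678 lies within Slpi on the same strand, and Tpi-rs11 is a processed copy of a glycolytic gene. Mir7663 lost its call without KO replicate 2 or WT replicate 1, Mir7678 without KO replicate 1, Tpi-rs11 without either WT library, and the predicted gene 1700047I17Rik2 without any single one of the 4. Mir7663 also lost its call with pseudocount 0.1 or 5, no FPKM minimum, robust moderation, voom on rebuilt reads and the LPS libraries fitted alone. Mir7678 also lost it with voom, and 1700047I17Rik2 with pseudocount 0.1, no FPKM minimum, robust moderation and TPM.

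Some falls were outside the interferon and chemokine lists, which does not say that interferon leaves these genes unaffected. Edn1, the endothelin-1 precursor, stood at 12.9 and 13.3 FPKM in KO and at 58.2 and 57.5 FPKM in WT (-2.06 ± 0.06, limma adjusted p = 4.98e-05). Mid1, an X-linked microtubule-binding ubiquitin ligase, stood at 0.276 and 0.435 FPKM in KO and at 7.77 and 8.62 FPKM in WT (-2.76 ± 0.11). Lipg, an endothelial lipase, stood at 35.4 and 39.7 FPKM in KO and at 128 and 153 FPKM in WT (-1.87 ± 0.09). Slc28a2, a nucleoside transporter, changed by -1.77 ± 0.09 and Calhm6, a channel-family protein, by -1.78 ± 0.10. Trim30c, of a TRIM family with close copies on chromosome 7, changed by -1.96 ± 0.10. The transcription factor genes Atf3, at 99.6 and 98.2 FPKM in KO and 192 and 202 FPKM in WT (-0.99 ± 0.04), and Mafk (-1.05 ± 0.05) fell, while Fos rose, at 34.2 and 32.4 FPKM in KO and 15.2 and 16.6 FPKM in WT (1.02 ± 0.07).

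Genes of resident and alternatively activated macrophages changed one by one. Cd5l, a scavenger protein of tissue macrophages, stood at 3.64 and 3.80 FPKM in KO and at 11.1 and 10.4 FPKM in WT (-1.31 ± 0.08). It was also called lower in KO without LPS (-1.31), and its interaction did not pass. Mertk, a receptor for apoptotic cells, stood at 3.94 and 4.38 FPKM in KO and at 8.36 and 8.11 FPKM in WT (-0.84 ± 0.07). Mgl2 and Marco, a lectin and a scavenger receptor, rose by 1.18 ± 0.14 and 1.00 ± 0.11. Csf1r, the receptor for colony-stimulating factor 1, rose by 0.48 ± 0.05. Mgl2 was also called higher in KO without LPS (1.59), and its interaction did not pass. No difference in Mertk, Marco or Csf1r was called without LPS, where Marco was below 1 FPKM in every library.

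Cell cycle genes were called about as often as all tested genes (18.1% lower and 10.8% higher), with 6 of 25 tested lower and 3 higher, or 1 higher without KO replicate 1. Mcm6, a subunit of the replicative helicase, stood at 5.03 and 5.21 FPKM in KO and at 12.8 and 13.9 FPKM in WT (-1.23 ± 0.06), and Ccnd2, a G1 cyclin, changed by -1.06 ± 0.10. Mki67, a proliferation marker, stood at 16.0 and 15.2 FPKM in KO and at 8.95 and 8.60 FPKM in WT (0.77 ± 0.06), and it was also higher in KO without LPS (0.62, adjusted p = 0.00276). The cholesterol synthesis gene Sqle rose by 0.68 ± 0.07, in a list with 8 of 28 higher and 5 lower, the lower share near that of all tested genes, or 4 higher without KO replicate 2 and 3 lower without WT replicate 1.

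Fcgr4, an activating receptor for antibody, stood at 84.9 and 83.1 FPKM in KO and at 184 and 209 FPKM in WT with LPS (-1.21 ± 0.08). It was lower in KO without LPS too (-1.12, adjusted p = 0.0015), and its interaction did not pass. For prostaglandins, Ptgs2, which encodes COX-2, stood at 235 and 245 FPKM in KO and at 397 and 385 FPKM in WT (-0.70 ± 0.10), while Ptges, the next enzyme toward prostaglandin E, stood at 709.7 and 716 FPKM in KO and at 437 and 449.9 FPKM in WT (0.68 ± 0.07).

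Several lists gave no stable count. Of 28 tested actin cytoskeleton genes 15 were lower, but 5 were without WT replicate 2 and 3 or 4 under the other scalings. Of 16 tested ETS family genes 7 were lower and 4 higher, with none lower without WT replicate 2. Of 26 tested genes of alternative activation 11 were lower and 6 higher, with 3 lower without WT replicate 2. Of 35 tested lysosomal genes 13 were lower and 2 higher in the deposited scaling, whereas 3 to 5 were lower and 11 to 14 higher under the others. Without KO replicate 1 no lysosomal gene was higher. Of 32 tested ribosomal proteins 2 passed, both lower, with none without KO replicate 2 and 5 without KO replicate 1. Of 29 tested respiratory chain subunits 3 passed, all lower, with 1 lower without KO replicate 2. Under the other scalings 5 ribosomal genes were higher and none lower, and 5 to 7 respiratory genes were higher and 1 lower. Of all tested genes, 2795 of 15752 were then higher under TPM, 3255 of 12137 under total reads and 1581 of 11887 under quantile normalization. Minus the median of all tested genes, the ribosomal median was -0.08 under TPM, -0.04 under total reads and 0.09 under quantile normalization. The respiratory median was -0.04, -0.02 and 0.04 in the same order.

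**Figure D4:**
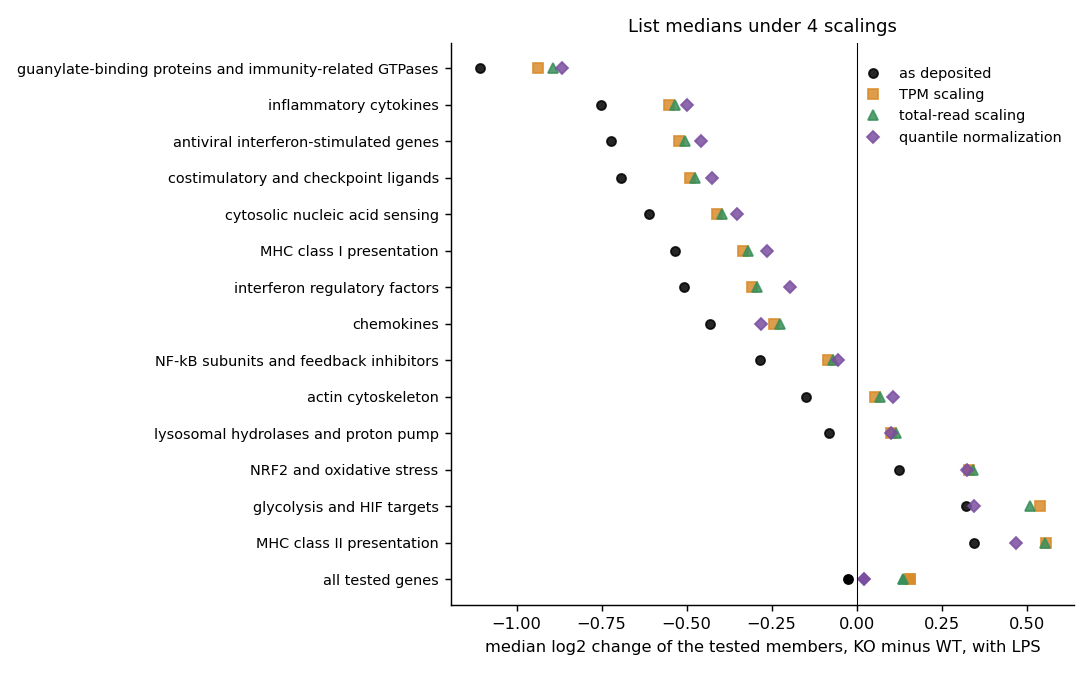
Median log2 change of the tested members of 14 lists and of all tested genes, KO minus WT with LPS, under the deposited scaling (black circles) and 3 others (coloured symbols). The interferon, class I, cytokine and costimulatory lists stay below 0 and glycolysis, NRF2 and class II stay above 0 under all 4, while the actin and lysosomal medians cross 0.

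Fewer genes differed between the genotypes without LPS, 671 in total, in a comparison that shares no library with the one above. Of the genes lower with LPS, 248 were also lower without it, which is 11.5% of the LPS list and 53.2% of the list without LPS. Another 75 genes were higher in both, 5.83% and 36.6% of their lists. Over all tested genes, 3.92% were lower and 1.72% higher without LPS, beside 18.1% lower and 10.8% higher with it. Opposite calls were made for 39 genes higher with LPS and lower without it, and for 39 the other way round. A direct test of the difference, the genotype by LPS interaction, was called for 671 genes above 0 (5.64% of those tested) and 1229 below 0 (10.3%). Among the 207 genes lower by at least 1 with LPS, 31 were also lower without it. On log2(FPKM + 1) a gene near 0 FPKM without LPS can hardly be called lower there. The counts without LPS rested on single libraries of that arm: they were 46 higher and 98 lower without its KO replicate 1, 47 and 108 without its KO replicate 2, and 76 and 136 without its WT replicate 1. Through the shared spread, 310 were lower without WT replicate 1 of the LPS arm. Interaction counts above and below 0 were then 285 and 682, 292 and 689, and 403 and 950. Leaving out LPS libraries gave 424 above without KO replicate 1, 441 above and 819 below without WT replicate 1, and 360 above and 679 below without WT replicate 2.

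Some of the largest changes were present in both conditions. Capn1, the catalytic subunit of calpain 1, stood at 5.57 and 5.79 FPKM in KO and 20.9 and 23.2 FPKM in WT with LPS, and at 6.37 and 6.46 FPKM in KO and 23.2 and 20.3 FPKM in WT without it. Pls3, an X-linked actin-bundling plastin, changed by -2.09 ± 0.15 with LPS and by -1.81 without it. Aldh1b1 and Slc28a2 were also lower in both, by 2.08 and 1.77 with LPS. Gdf3, a ligand of the TGF-beta superfamily, was higher in both, at 12.2 and 10.3 FPKM in KO and 3.05 and 2.78 FPKM in WT with LPS and at 25.7 and 24.2 FPKM in KO and 8.66 and 9.62 FPKM in WT without it. Adam19 and Lzts2 were also higher in both (1.61 and 1.31 with LPS, 1.24 and 1.03 without). For Capn1, Pls3, Gdf3, Adam19 and Lzts2 the interaction did not pass, whereas it passed for Aldh1b1 and Slc28a2.

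**Figure D5:**
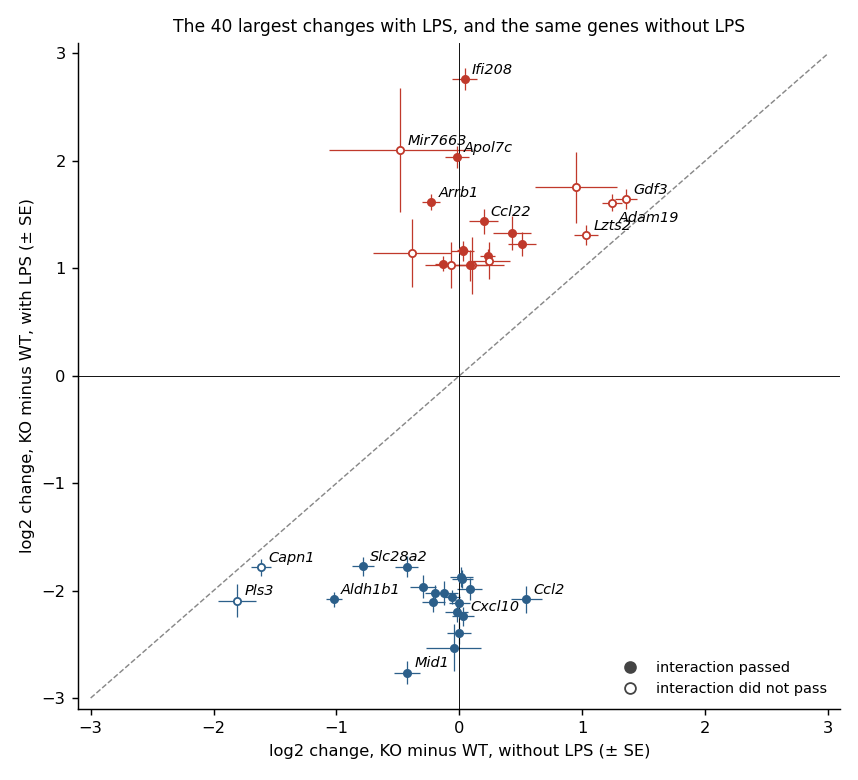
Change in KO with LPS (vertical axis, log2 ± SE) against the change without LPS (horizontal axis, log2 ± SE) for the 20 largest falls and 20 largest rises with LPS; filled points passed the interaction test and open points did not. Most falls lie on a vertical band near 0 without LPS, while Capn1, Pls3, Gdf3, Adam19 and Lzts2 lie near the dashed line of equal change. Falls such as Cxcl10, Cxcl11, Gbp4 and Lipg were below 1 FPKM without LPS, where log2(FPKM + 1) holds any change near 0.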

How the data were processed

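Total RNA from bone marrow-derived macrophages was sequenced in bulk, per the labels' protocols. The authors deposited gene-level FPKM values for 8 libraries in a single table of 54532 genes, all of whose per-library columns were used. The submitters' processing notes name mm10 and DESeq2, with no role or version. No aligner, counter or strand setting is stated in the sources used here. FPKM times gene length came out as a whole multiple of 1 step per library for 100% of values (within 0.001), which let reads per gene be rebuilt. The deposited scale does not follow total reads: the library size the steps imply was 0.925 and 0.914 times the rebuilt total in KO with LPS and 0.797 and 0.784 times in WT with LPS, which is why other scalings were tried.

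Values were analysed as log2(FPKM + 1) with limma 3.58.1 in R 4.3.3 (trended moderation), with 11887 genes at 1 FPKM or more in at least 2 libraries. The model had 4 groups (genotype by treatment), all 8 libraries, 4 residual and 2.744 prior degrees of freedom and no replicate block. Contrasts were KO against WT with LPS, the same without LPS, and their difference. P-values were adjusted by the Benjamini-Hochberg method over all tested genes, with a threshold of 0.05. The fit was tested on simulated data. Alternatives changed the pseudocount, the FPKM minimum, the scaling (TPM, total reads, quantile), the moderation, the libraries entering the fit and the replicate block, or used limma's voom on the rebuilt reads.

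The members and the gene lists were chosen with earlier results of these data known. Genes named in the text are Elf1, the 20 largest rises and falls with LPS among genes with an established symbol, non-overlapping libraries and a mean of at least 5 FPKM in the higher group, up to 5 members of each list with the largest change among those that passed, and the 5 largest interaction terms in each direction. A few that this rule admits are not reported here. Any other is said to be named after its values were seen. Promoter sequences are RefSeq windows of GRCm38.p6, matched by symbol or synonym.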

Additional observations from a re-analysis of the deposited data

Results flagged for a closer look

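The genotype difference itself differed with LPS for many genes, as tested by the interaction term of the limma fit. It was above 0 for 671 genes and below 0 for 1229 genes. The terms furthest below 0 among genes that the naming rule admits were those of Ccl2 (-2.63), Ccl7 (-2.48), Ifit1bl1 (-2.39), Mid1 (-2.34) and Cxcl10 (-2.27). For Ccl2 the KO libraries were above the WT libraries without LPS, at 1.35 and 1.38 FPKM in KO and at 0.721 and 0.525 FPKM in WT, a change of 0.55 that did not pass (adjusted p = 0.0621). The other 4 were below 1 FPKM without LPS in every library, a range where log2(FPKM + 1) understates changes. Among them Mid1 was already lower in KO without LPS, at 0.0605 and 0.0668 FPKM in KO and at 0.441 and 0.417 FPKM in WT. On that scale this was a change of -0.43 that did not pass (limma adjusted p = 0.0715).

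The terms furthest above 0 were those of Ifi208 (2.72), Apol7c (2.06), Arrb1 (1.85), Sdc1 (1.26) and Ccl22 (1.24). Sdc1, which encodes the heparan sulfate proteoglycan syndecan-1, changed sides: with LPS it stood at 119 and 119.8 FPKM in KO and at 83.9 and 75.2 FPKM in WT (0.58 ± 0.06, adjusted p = 0.000575). Without LPS it stood at 20.8 and 21.3 FPKM in KO and at 34.1 and 34.4 FPKM in WT (-0.68, adjusted p = 0.00218).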

How the results depend on the processing

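With LPS, 1286 genes were higher and 2152 lower as reported. Higher genes numbered 2795 after TPM rescaling, where 15752 genes passed the minimum, 3255 after scaling by total reads, where 12137 passed, and 735 when only the 4 LPS libraries were fitted. Lower genes numbered 1024 with TPM, 1081 with total reads and 1371 with quantile normalization. Without LPS the counts were 205 higher and 466 lower. They became 433 higher under total reads, 349 under quantile normalization, 666 higher and 1030 lower with voom on rebuilt reads, and 14 and 37 with only those 4 libraries. The count lower was 252 under TPM and 302 with no FPKM minimum. The interaction was above 0 for 671 genes, against 1280 under total reads and 428 with no minimum. It was below 0 for 1229 genes, against 598, 727 and 722 under TPM, total reads and quantile normalization. No gene called higher with LPS was called lower under these scalings, and 6 called lower were called higher under quantile normalization. With 1 library left out, the LPS counts ranged from 721 to 1257 higher and from 1363 to 2214 lower, those without LPS from 46 to 166 and from 98 to 381, and the interaction from 285 to 621 and from 679 to 1132. The lone library of a group was then assumed to vary like the others. The cause of these shifts was not tested.

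Same-numbered libraries showed no shared deviation over all tested genes, with correlations of deviations between -0.077 and 0.0334 over 11887 genes. A pairing that affects few genes would not show in this, and the labels do not say whether the replicate numbers pair the samples. With a replicate block the counts were 1115 higher and 1991 lower with LPS, 124 and 282 without LPS, and 559 and 1087 for the interaction. Leaving out genes under 300 bases, an alternative added after seeing the data, gave 1384 and 2264. A second such alternative kept the 11887 genes and changed the scaling alone. It gave 3010 higher and 1075 lower with LPS, 353 and 265 without LPS, and 669 interaction terms below 0 under TPM. Under total reads it gave 3266 and 1091 with LPS, 448 higher without LPS, and interaction terms above and below 0 for 1292 and 732 genes. Of the alternatives run for the 123 genes whose values the text gives in the LPS comparison, 2763 kept direction and side of the threshold, 39 lost a call and 18 gained one, and none turned a called gene round.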

Other observations

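The largest changes with LPS include genes that the naming rule leaves out, given here after their values were seen. Gm15726, an antisense gene, was listed at 0 in both KO libraries and at 34.0 and 35.3 FPKM in WT with LPS. Gm42031, a long intergenic RNA, was listed at 0 in both KO libraries and at 9.64 and 8.55 FPKM in WT with LPS, and its change without LPS was -4.34. Bmpr1a, a receptor for bone morphogenetic proteins, stood at 3.31 and 3.32 FPKM in KO and at 0.254 and 0.195 FPKM in WT with LPS (1.82), and was higher in KO by 1.64 without LPS.

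Of 33 tested mitochondrially encoded genes 4 were called higher in KO with LPS, beside 10.8% of all tested genes. The tRNA gene mt-Tg was at 8.07 and 19.1 FPKM in KO with LPS and was listed at 0 in both WT libraries, and mt-Tr was at 11.1 and 2.87 FPKM in KO and likewise listed at 0 in WT. The tRNA gene mt-Tm was at 1.99 and 1.88 FPKM in KO and listed at 0 in WT. These tRNA genes are short, so few reads may lie behind such levels, and a listed 0 still allows up to 3 reads. The protein-coding gene mt-Nd3 was at 18.3 and 27.1 FPKM in KO and at 4.63 and 3.12 FPKM in WT (2.28 ± 0.27, limma adjusted p = 0.00124). Differences without LPS were 3.82 for mt-Tg, 3.21 for mt-Tr and 3.03 for mt-Nd3, all called. The other 12 protein-coding mitochondrial genes did not pass with LPS, among them mt-Co1 at 3511 and 3767 FPKM in KO and 3801 and 4248 FPKM in WT.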
